A study of Saccharomyces cerevisiae with 6 samples.

Results

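The 10 genes described here encode the cytosolic J-domain Hsp40 proteins of *Saccharomyces cerevisiae*: *YDJ1* (YNL064C), *SIS1* (YNL007C), *APJ1* (YNL077W), *XDJ1* (YLR090W), *ZUO1* (YGR285C), *JJJ1* (YNL227C), *JJJ2* (YJL162C), *JJJ3* (YJR097W), *CAJ1* (YER048C) and *DJP1* (YIR004W). They were chosen by locus tag and make up 10 of the 5793 features with a value in the deposited table, and each of the 10 has one. RNA-Seq of unfixed cells covered 3 heat shock libraries, made after 20 min at 37 °C, and 3 optimal growth libraries, from cells left at 28 °C. All 6 came from the BJ5464 strain, a laboratory auxotroph that the labels give as lacking URA3, grown as 1 culture in rich glucose medium and then divided. The 3 libraries of a condition were prepared from aliquots of the same flask and are not separate cultures.

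The level analysed is the authors' mean abundance of each gene, the log2 of the mean CPM (counts per library, put on the same total) over both conditions together. Heat shock and optimal growth therefore enter every level below in 1 value, and no difference between them is given here. No SD, library depth or counting interval belongs to these values, so neighbours in the order of levels cannot be placed beyond error. To compare genes with one another, the mean CPM was divided by the coding length, giving CPM per kb. Over 5706 protein-coding genes the median was 5.88 on the log2 scale of CPM per kb, and the middle of the distribution, between its quartiles, ran from 4.92 to 7.01.

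J-domain proteins are the partners that bring substrates to Hsp70 chaperones and stimulate their ATP hydrolysis. The J domain is a short helical bundle with an invariant histidine, proline and aspartate (HPD) in the loop between its central helices, and loss of this tripeptide abolishes the stimulation. Outside the J domain the family diverges. Class A proteins, with the bacterial DnaJ layout, carry a glycine and phenylalanine rich linker and a zinc finger built from CxxCxGxG repeats. Class B proteins keep the linker and lack the zinc finger, and class C proteins share little more than the J domain and often act at one place in the cell, such as the ribosome.

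The coding bases around the HPD tripeptide are shown because they encode the tripeptide that all members share. The capitals mark the HPD codons and the lower-case letters are the 9 bases on each side, read 5′ to 3′ on the coding strand of the RefSeq R64 assembly.
YDJ1: ttaaaatacCATCCAGATaagaatcca
SIS1: ctaaaatatCATCCAGATaagccaaca
APJ1: ttaaaatatCATCCTGATaaaaacaat
XDJ1: ctgaaacatCATCCGGACaagtatgtg
ZUO1: gtcaagtacCATCCAGACaagcaatct
JJJ1: ctacaatatCACCCAGATaaaaaccca
CAJ1: atggaaacaCATCCGGACaagcatcct
DJP1: attcaagagCATCCTGATaagaatccc
JJJ2: agattacttCACCCAGATaaaacaaaa
JJJ3: ctaaatacgCACCCCGATaaactttct

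These stretches lie within the single coding exon of each gene. On the minus strand they are chrXIV:506981-507007 for *YDJ1*, chrXIV:619449-619475 for *SIS1*, chrVII:1062755-1062781 for *ZUO1*, chrXIV:222321-222347 for *JJJ1*, chrV:248041-248067 for *CAJ1* and chrX:115492-115518 for *JJJ2*. On the plus strand they are chrXIV:481481-481507 for *APJ1*, chrXII:320800-320826 for *XDJ1*, chrIX:363311-363337 for *DJP1* and chrX:612509-612535 for *JJJ3*.

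The tripeptide was identical in all 10 proteins while its codons were not. The 9 bases took 6 forms among the 10 genes. Histidine was read from CAT in 7 genes and from CAC in *JJJ1*, *JJJ2* and *JJJ3*. Aspartate was read from GAT in 7 genes and from GAC in *XDJ1*, *ZUO1* and *CAJ1*. *YDJ1* and *SIS1*, the pair with the highest levels, had the same 9 bases. So did *JJJ1* with *JJJ2*, *XDJ1* with *CAJ1*, and *APJ1* with *DJP1*. An HPD tripeptide alone does not mark the family, since 257 of the 5706 proteins (4.50%) contain one somewhere. *CAJ1* contains it at 2 places, and the bases printed above are those around the first.

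The members spanned a wide range of mRNA levels. *YDJ1*, *SIS1* and *ZUO1* stood at the top, *CAJ1*, *DJP1* and *XDJ1* in the middle, and *JJJ3*, *JJJ1*, *APJ1* and *JJJ2* below the median of all genes. From the highest to the lowest member the level in CPM per kb differed 47.6-fold. The 3 highest genes held 79.2% of the summed level of 2244 CPM per kb, and *YDJ1* alone held 33.3%. Of the 10 members, 6 lay above the all-gene median, and the median of the members was 6.42 on the log2 scale of CPM per kb.

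**Figure D1:**
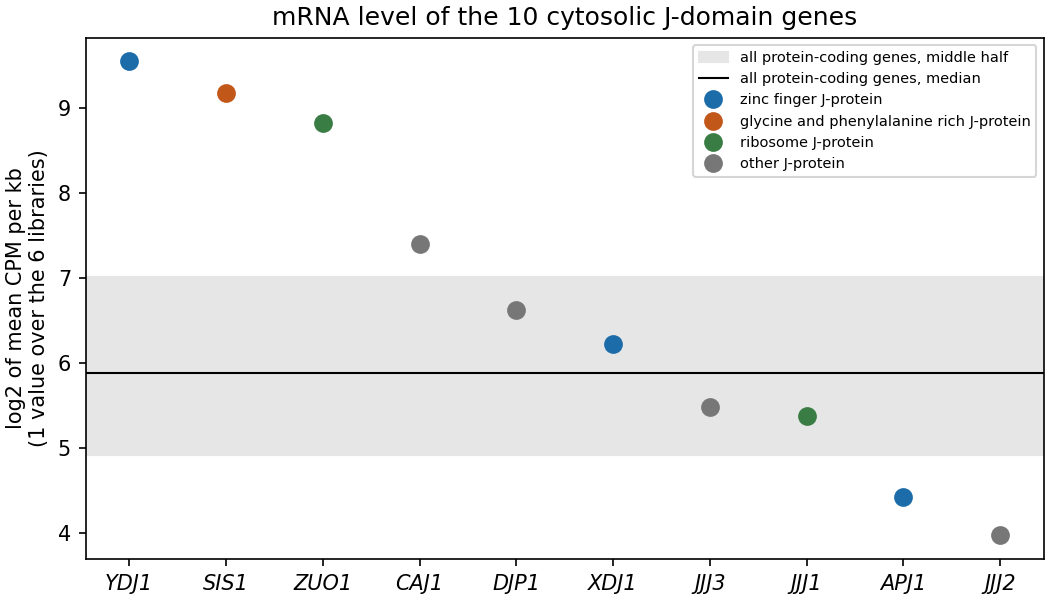
Level of each member as the log2 of mean CPM per kb of coding length (vertical axis), with the genes ordered from high to low along the horizontal axis and coloured by role. Each point is the authors' 1 value over both conditions, the grey band spans the quartiles of all protein-coding genes (4.92 to 7.01) and the line is their median (5.88). *YDJ1*, *SIS1*, *ZUO1* and *CAJ1* lie above the band, and *APJ1* and *JJJ2* lie below it.

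Among the zinc finger members, *YDJ1* was by far the most abundant. *YDJ1* encodes the main class A J-protein of the yeast cytosol, a farnesylated partner of the Ssa Hsp70s in folding and in protein import into mitochondria and the endoplasmic reticulum. Its authors' mean was 9.85 as log2 CPM, or 919.8 CPM, and its level was 748 CPM per kb. This placed it at rank 270 of the 5706 genes, with 95.3% of genes below it. *XDJ1*, a class A relative that acts at the mitochondrial outer membrane, had an authors' mean of 6.69 as log2 CPM and 74.6 CPM per kb. *YDJ1* thus exceeded it 10.02-fold per unit of length. *APJ1*, a mainly nuclear class A protein, had an authors' mean of 5.09 as log2 CPM. At 21.5 CPM per kb it stood 34.8-fold under *YDJ1*, with 16.3% of genes below it.

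*SIS1* followed *YDJ1* closely. *SIS1* encodes the essential class B J-protein, which is needed for prion propagation in yeast and works with Hsp70 in restraining the heat shock transcription factor Hsf1. Its authors' mean was 9.26 as log2 CPM, or 612 CPM, and it reached 578 CPM per kb, rank 331. The level of *YDJ1* was 1.29-fold that of *SIS1*, a gap of 0.37 on the log2 scale. Without values per library it is not known whether such a gap exceeds the spread between libraries.

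The ribosome-linked members lay far apart. *ZUO1* encodes zuotin, which forms the ribosome-associated complex with the Hsp70-like protein Ssz1 and stimulates the Ssb Hsp70s on nascent chains. Its authors' mean was 9.20 as log2 CPM, or 588 CPM, and its level was 452 CPM per kb, rank 417. *JJJ1* encodes a class C protein that acts in the last cytoplasmic steps of large ribosomal subunit maturation. Its authors' mean was 6.21 as log2 CPM and its level 41.7 CPM per kb, with 36.9% of genes below it. *ZUO1* exceeded *JJJ1* 10.8-fold per unit of length.

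The remaining members covered the middle and the bottom of the range. *CAJ1*, a DnaJ-type protein with few assigned functions, had an authors' mean of 7.64 as log2 CPM and 169 CPM per kb, with 80.5% of genes below it. *DJP1*, which takes part in peroxisomal import and in the delivery of mitochondrial precursors from the surface of the endoplasmic reticulum, had an authors' mean of 128 CPM and a level of 98.7 CPM per kb. *JJJ3*, also known as *DPH4*, is needed for the diphthamide modification of elongation factor 2 and is the shortest member. Its authors' mean of 4.54 as log2 CPM was the lowest of all members, and at 44.9 CPM per kb it was seventh in the order by length-corrected level. *JJJ2*, a J-protein without a well-defined function, had an authors' mean of 4.78 as log2 CPM and was the lowest member per unit of length, at 15.7 CPM per kb with 10.9% of genes below it.

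The gaps between neighbours in CPM per kb differed in size, and without an error they do not measure how certain the order is. The largest step, 1.42 on the log2 scale, separated *ZUO1* from *CAJ1*. The smallest, 0.11, separated *JJJ3* from *JJJ1*. The order also depended on the division by length, without which *JJJ3* fell below *JJJ1*, *APJ1* and *JJJ2* to the last place. Steps between the other neighbours ranged from 0.36 for *SIS1* over *ZUO1* to 0.96 for *JJJ1* over *APJ1*. None of the coding sequences contained a 50-base word that occurs elsewhere in the genome, on either strand, and no other gene of the RefSeq annotation overlapped a member. No stretch of 50 bases in these 10 genes therefore had an exact copy elsewhere, and copies with mismatches were not searched.

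Other genes of the chaperone network gave the scale for these levels. The 12 J-domain genes of other compartments and complexes had a median of 6.03 on the log2 scale of CPM per kb, and 6 of 12 exceeded the all-gene median. They ranged from 4.29 for *MDJ2*, a mitochondrial J-protein, to 7.54 for *PAM18*, the J-protein of the mitochondrial import motor. *YDJ1*, *SIS1* and *ZUO1* therefore had levels above each of these 12 genes, and *JJJ2* had a level below each of them. The place of *JJJ2* depended on the division by length. Without it *JJJ2*, at 4.78 as log2 CPM, lay above *MDJ2* at 3.11. The 12 cytosolic partners (Hsp70s, Hsp110s, nucleotide exchange factors and Hsp104) had a median of 9.58. They ranged from 6.54 for *SNL1*, an exchange factor anchored in the endoplasmic reticulum membrane, to 10.49 for *SSA2*, a constitutive Hsp70. These lists are given as descriptions and their differences were not tested.

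**Figure D2:**
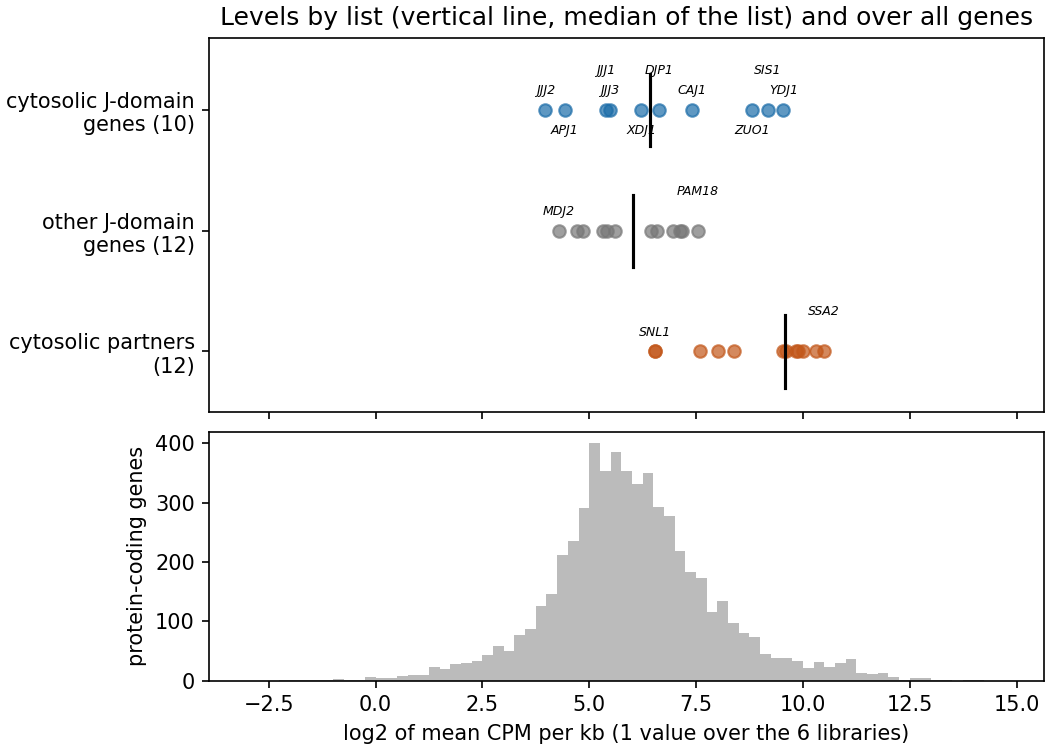
Levels of the 10 cytosolic J-domain genes, 12 other J-domain genes and 12 cytosolic partners (upper panel, 1 point per gene, vertical line at the median of the list) above the distribution of all protein-coding genes (lower panel, number of genes per bin). The horizontal axis is the log2 of mean CPM per kb over both conditions. The medians are 6.42, 6.03 and 9.58, and *YDJ1*, *SIS1* and *ZUO1* lie to the right of all 12 other J-domain genes.

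In the authors' mean over both conditions, the summed *SSA* genes exceeded *YDJ1* and the summed *SSB* genes exceeded *ZUO1*. Single Hsp70 genes did not all do so, with *SSA3* at 93.1 CPM per kb lying below *YDJ1*. Whether these orders held within either condition is not given by these values. *SSA1*, *SSA2*, *SSA3* and *SSA4* summed to 3824 CPM per kb, which was 5.11-fold the level of *YDJ1* and 1.70-fold the sum of all 10 members. *SSA4*, a heat-inducible Hsp70, contributed 1021 CPM per kb to that sum. In *SSA1*, 57.9% of the 50-base words recur outside the gene or within it, and in *SSA2* 58.2%, so how reads were split between these copies is uncertain. *ZUO1* and *SSZ1*, whose products pair in the ribosome-associated complex, lay near each other, with *ZUO1* at 1.34-fold the level of *SSZ1*. *SSB1* and *SSB2*, the Hsp70s served by that complex, summed to 1656 CPM per kb, 3.66-fold the level of *ZUO1*. Each of this pair has 43.2% of such words, and its single value is uncertain in the same way.

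Codon use differed among the members. A codon index was computed for each gene, a value up to 1 that is higher when a gene uses the synonymous codons preferred by the 100 genes with the highest levels in this table. *ZUO1* had an index of 0.568 and *YDJ1* one of 0.456, with 95.5% and 94.1% of genes below them. *SIS1* had an index of 0.240, near that of *CAJ1* at 0.254, although its level was close to that of *YDJ1*. The other 6 members lay between 0.195 for *JJJ3* and 0.217 for *DJP1*, around the all-gene median of 0.209. Across the 10 members Pearson's r of level and index was 0.70 and Spearman's rho 0.83. Across all 5706 genes these were 0.60 and 0.47. Both are descriptions across genes, which are not independent replicates, and the index was built on genes picked for their level in the same table.

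**Figure D3:**
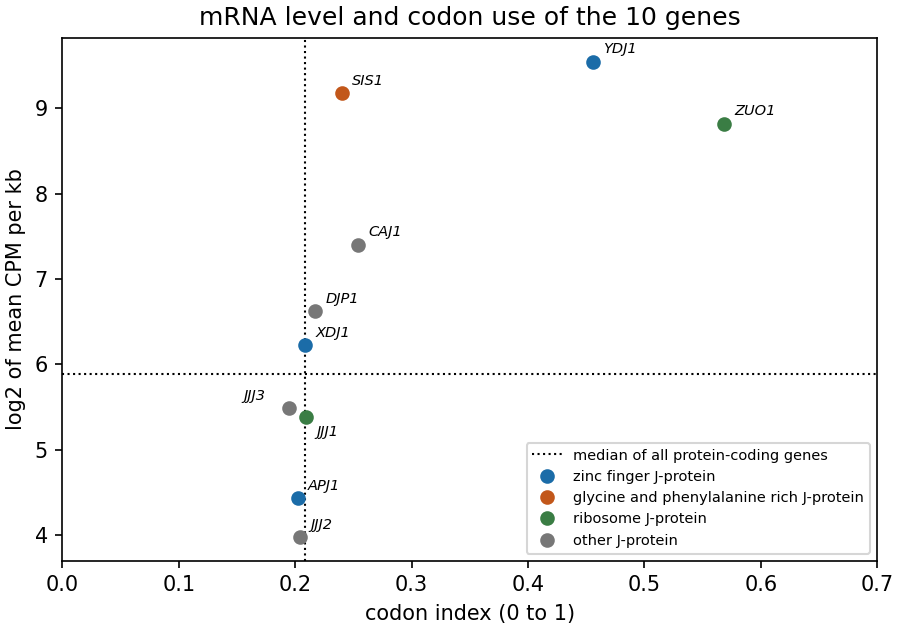
Codon index (horizontal axis, 0 to 1) against the log2 of mean CPM per kb (vertical axis) for the 10 members, coloured by role, with dotted lines at the medians of all protein-coding genes (0.209 and 5.88). *ZUO1* and *YDJ1* lie far to the right, *SIS1* combines a high level with an index of 0.240, and the lower members line up near the all-gene median of the index.

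The J domains themselves were related to different degrees. A stretch of 70 residues, from 32 before the HPD tripeptide to 35 after it, was aligned for each of the 45 pairs of members. In *JJJ1*, whose tripeptide starts at residue 32, the stretch began at the first residue and held 69 residues. Identity had a median of 40.3% and ranged from 25.7% for *ZUO1* with *JJJ3* to 64.7% for *YDJ1* with *SIS1*. *YDJ1* was also close to *JJJ1* (59.7%) and *XDJ1* (59.1%), and *CAJ1* was closest to *DJP1* (58.6%). *ZUO1*, *JJJ3* and *JJJ2* were the most distant members, with median identities to the others of 35.4%, 34.4% and 36.2%. Over whole proteins the median of the 45 pairs fell to 27.8%, though not every pair fell. The highest whole-protein value, 43.7% over 167 aligned residues, was that of *JJJ3* with *APJ1*, which shared 38.8% of the J stretch. Positions opposite a gap were left out of both measures, so a short protein such as that of *JJJ3* was compared over few residues. *ZUO1* thus had one of the highest levels and one of the most divergent J stretches.

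**Figure D4:**
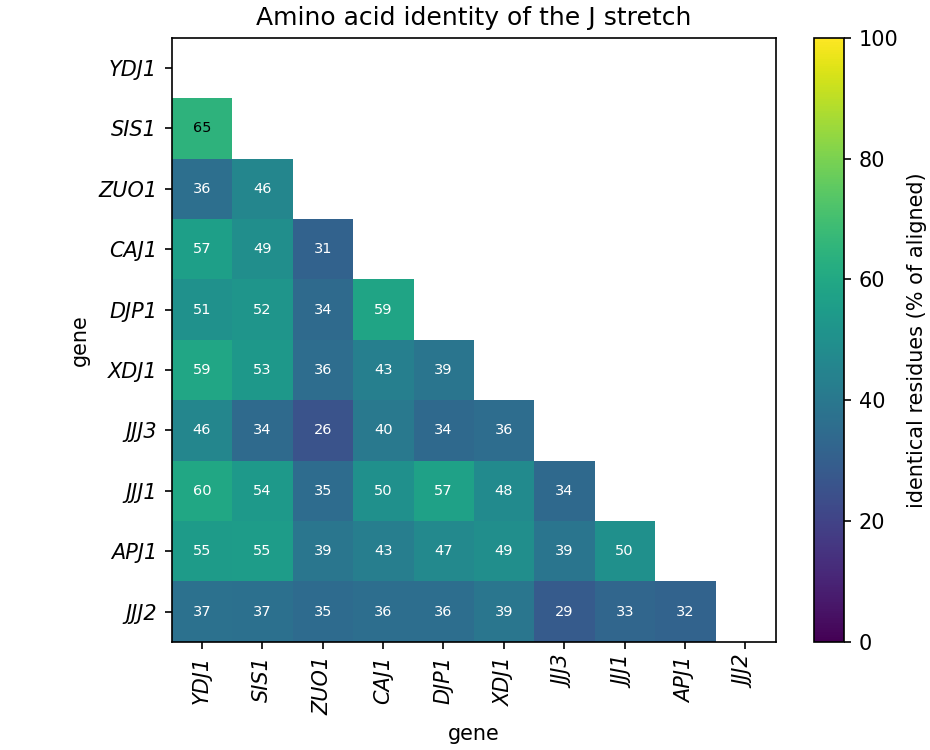
Percentage of identical residues among aligned residues of the J stretch for each pair of members, with the genes on both axes in order of mRNA level from high to low. *YDJ1* and *SIS1* share 64.7% and *ZUO1* and *JJJ3* share 25.7%, the ends of the range.

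The proteins differed in layout. The HPD tripeptide lay between residues 32 and 41 in 9 members, at the amino-terminal end, and at residue 128 in *ZUO1*, whose J domain follows an amino-terminal extension. Exact CxxCxGxG matches were found 3 times in *YDJ1* and 4 times each in *XDJ1* and *APJ1*, and not in the other 7 members. Repeats that deviate from these letters were not counted, so a lower count does not show that a repeat is lacking. Of 5706 proteins, 3 had 4 such exact matches, and the one outside the cytosolic members was that of *MDJ1*, the DnaJ homologue of mitochondria. Glycine and phenylalanine made up 50% of the 60 residues after the J stretch in *SIS1* and 38.3% in *YDJ1*, against 28.3% in *XDJ1* and between 10% and 23.3% in the other 7 members. Among these was the class A member *APJ1* at 15%, the same share as in *ZUO1* and *DJP1*, so the linker residues counted this way did not follow the class. Lysine and arginine made up 18.9% of *ZUO1* and 18.1% of *JJJ1*, the pair that works on ribosomes, and 17.6% of *CAJ1*. The values of the other members ranged from 11.05% to 15.3%.

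**Figure D5:**
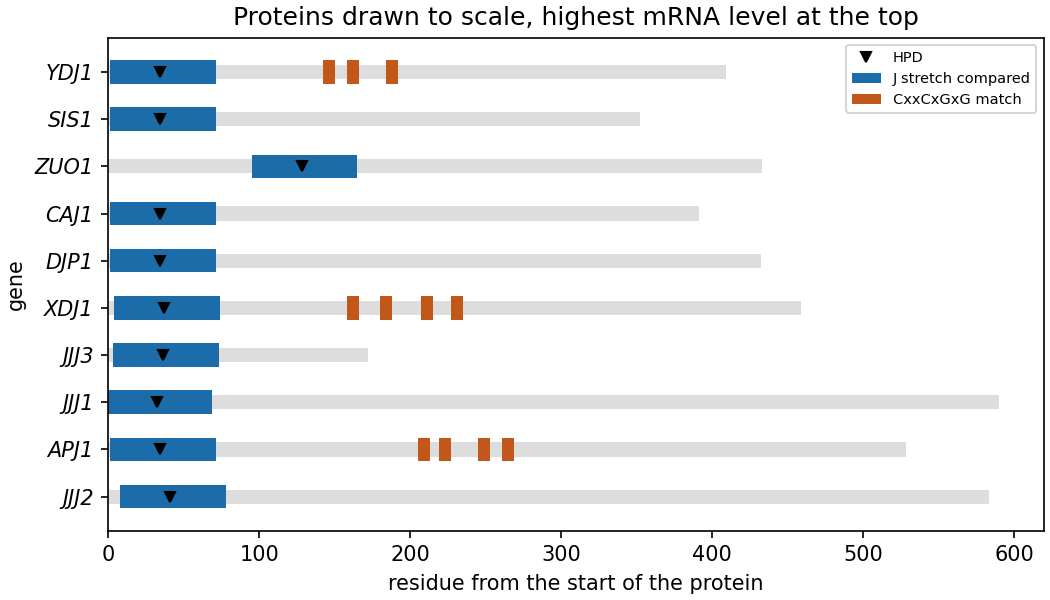
The 10 proteins drawn to scale (grey, horizontal axis in residues) in order of mRNA level from the top, with the J stretch in blue, the HPD tripeptide as a triangle and CxxCxGxG matches in orange. The HPD tripeptide of *ZUO1* starts at residue 128, and the orange matches occur in *YDJ1*, *XDJ1* and *APJ1*.

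Promoter windows from 250 bases before the annotated start to 50 after it were searched on both strands for letters of known stress elements. The heat shock element is built from inverted GAA units. A pair of such units, GAANNTTC or TTCNNGAA, was present in 2 of the 10 windows, those of *JJJ2* and *JJJ3*, and in 22.9% of the windows of all protein-coding genes. Elements of 3 alternating units, in which both of those pairs overlap by 1 unit, were in 0 of 10 windows and in 0.806% of all windows. The stress response element AGGGG was in 2 windows, those of *DJP1* and *JJJ1*, and in 21.9% of all windows, with the match of *JJJ1* lying inside the coding sequence. The letters GGTGGCAAA, the proteasome control element, were in 0 of 10 windows and in 1.24% of all windows. Units that deviate from these letters, or lie outside the window, were not searched.

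The matches of 2 inverted units are printed because they are the only pairs in the 10 windows, with the pair in capitals and written 5′ to 3′ on the strand of the gene. That of *JJJ2* starts 67 bases before the start codon, and the printed bases are chrX:115678-115707 on the minus strand of R64. That of *JJJ3* starts 216 bases before the start codon, and the printed bases are chrX:612186-612215 on the plus strand.
JJJ2: aaatagacctgGAATGTTCaatatagactg
JJJ3: atcattgacttTTCTTGAAgatttatgagc

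All 10 members have 1 coding exon in the R64 annotation, the assembly named in the labels. Of the 10 genes, 4 lie on chromosome XIV, which holds 6.80% of the protein-coding genes with a level. These are *JJJ1* from 220659 to 222431 on the minus strand, *APJ1* from 481391 to 482977 on the plus strand, *YDJ1* from 505868 to 507097 on the minus strand and *SIS1* from 618507 to 619565 on the minus strand. Chromosome X holds *JJJ2* from 113878 to 115629 on the minus strand and *JJJ3* from 612413 to 612931 on the plus strand. *ZUO1* lies on chromosome VII from 1061852 to 1063153 on the minus strand. Chromosome V holds *CAJ1* from 246982 to 248157, minus strand. *DJP1* is found on chromosome IX from 363221 to 364519 on the plus strand, and *XDJ1* on chromosome XII from 320701 to 322080 on the plus strand. Coding lengths ran from 519 bases for *JJJ3* to 1773 bases for *JJJ1*, beside a median of 1224 over all protein-coding genes, and GC content ran from 36.0% in *JJJ3* to 44.2% in *ZUO1*, beside a median of 39.8%.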

How the data were processed

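The authors aligned RNA-Seq reads with kalign to a masked yeast genome (R64, sacCer3) and compared the treatments with the Trinity edgeR pipeline, per the paper's methods. The counter, strand use, filter, prior count and library scaling are not given in the sources used here. The deposited table holds 1 log2 mean CPM per feature over both conditions, which was used as deposited. Its 3 other numeric columns hold the authors' own comparison (log2 fold change, p-value and FDR) and were not used, so heat shock was not compared with optimal growth and no test was run.

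Features were matched to RefSeq R64 by locus tag (5715) or symbol (76), and 2 were unmatched. Mean CPM was divided by coding length for 5706 protein-coding genes, with no pseudocount. Proteins were translated from the genome and aligned globally (BLOSUM62, gap opening 11, extension 1). The genes for the codon index left out all listed genes. Motif, rank, word and codon steps were checked on planted data. The members and lists were chosen with earlier results of these data known. The text names all 10 members, the ends of each other list, and *SSZ1* and the *SSA* genes as partners. *SSB1*, *SSB2* and *MDJ1* were added after their values were seen. Alternatives were no length division, rescaling, a pseudocount of 1, the mean, filters at log2 mean CPM 1 and 5, motif orientation and window, and whole-protein identity. Software was Biopython 1.88, scipy 1.17.1, numpy 2.4.6, pandas 2.3.3 and matplotlib 3.10.9 under Python 3.11.15.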

Additional observations from a re-analysis of the deposited data

How the results depend on the processing

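No paired analysis was possible because the level is 1 value per gene over both conditions, and leaving out each replicate could not be run for the same reason. With no spread between libraries, any change of a level counts as a move. The median of the 10 members, 6.42 as log2 CPM per kb, was 6.84 without division by length, 6.26 when CPM per kb was rescaled to sum to 1000000 over genes, 6.44 as log2(CPM per kb + 1) and 6.71 as the mean of members. The span from *YDJ1* to *JJJ2*, 5.57 on that log2 scale, was 5.30 (from *YDJ1* to *JJJ3*) without division by length and 5.48 with the pseudocount of 1. The count of members above the all-gene median was 6 without division by length, 6 when genes under a log2 mean CPM of 1 were dropped, and 5 when those under 5 were dropped, a filter that 8 of the 10 members pass (not *JJJ2* and *JJJ3*). Pairs of inverted units were in 1 window as GAANNTTC (*JJJ2*) and in 1 as TTCNNGAA (*JJJ3*), and both lay before the start. The median identity of 40.3% over the J stretch was 27.8% over whole proteins. Depth per library is unknown, which limits what can be said of the lower members.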
